A study of Mus musculus with 5 samples.

Results

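In 3T3-L1 cells, 4C-seq with the Cebpa promoter as the viewpoint was used to follow the contacts of this gene along chromosome 7, and the values below are those of the centromeric side at 1 to 10 Mb from the viewpoint. The members were all 2000-bp windows of chromosome 7 (mm10) in the 9 Mb that end at 34118000, which is a choice by position and uses no read. There were 4500 such windows, of which 1440 were listed in at least 1 of the 4 libraries, among 12222 listed windows on the chromosome and 29870 in the genome. The question was how many of these windows met the Cebpa promoter, where they lay, and how the preadipocyte and adipocyte states differed.

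The groups were 3T3-L1-PRE, the undifferentiated preadipocytes, and 3T3-L1-AD, the same line after induction with the MDI cocktail of dexamethasone, IBMX and insulin, followed by insulin alone until day 7. Both states were fixed with formaldehyde, and their chromatin was cut with DpnII and, after ligation, with NlaIII. 3T3-L1 is an established line derived from mouse embryo, and each library is a bulk of cells. The extent of differentiation was not analysed here, since 4C reads hold no expression. There were 2 libraries of each state. The sources do not say that replicates came from separate cultures, so p-values measure only the spread between these libraries, which may be technical.

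C/EBPα, the product of Cebpa, is a transcription factor of adipocyte differentiation, and its gene is turned on as preadipocytes become adipocytes. In 4C-seq, DNA that lay close together in cross-linked nuclei becomes joined after cutting, and whatever was joined to the viewpoint is amplified and sequenced, so reads report how often a fragment lay close to the promoter across the cells. Contacts usually thin out with distance along the chromosome. At several megabases they reflect the folding of whole domains, in which gene-rich, active chromatin tends to meet other gene-rich chromatin, and less often single loops between a promoter and an enhancer.

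The region is rich in gene clusters and has a coding transcription start in 219 windows. From its centromeric end it runs through Lipe, Tgfb1 and the Cyp2 cytochrome P450 genes, then Akt2, a cluster of zinc finger genes, Kmt2b and the Fxyd genes, and ends in the Scgb secretoglobin genes. It contains 25057 DpnII sites. The reading primer carries such a site at its 3′ end (in capitals) and is shown because every read starts from it. It matched the plus strand of mm10 once, at chr7:35117558-35117577, upstream of the Cebpa start at 35119293.
reading primer: atctggcccagagagcGATC

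Genome-wide, the preadipocyte libraries (3T3-L1-PRE) listed 9453610 and 16888137 reads, and the adipocyte libraries (3T3-L1-AD) 6535263 and 10173531. Values of a state are always given for replicate 1 and then replicate 2. Only windows above a minimum are listed, and this minimum differed between libraries. The lowest listed count was 13 and 11 reads in preadipocytes but 2 and 2 in adipocytes. A window that is not listed was counted as 0, although up to 12 and 10 reads may be hidden in preadipocytes and 1 in adipocytes. Counts of windows are therefore also given with a common minimum of 13 reads. Counts of genes are given without it.

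Fewer windows of the region were listed in adipocytes than in preadipocytes. In 3T3-L1-PRE, 409 and 1158 windows were listed, and in adipocytes, 83 and 193. As a share of all listed windows of chromosome 7 in the same library, these were 11.4% and 12.2% in preadipocytes. In adipocytes they were 7.96% and 9.42%, so the shares differed far less than the counts. The means were 783.5 ± 529.6 and 138 ± 77.8 (SD, n = 2), a 5.68-fold difference. The log2 ratio of the means was −2.51, with −1.57 when preadipocyte replicate 2 and −3.24 when adipocyte replicate 2 was left out. Both 3T3-L1-AD libraries lay below both 3T3-L1-PRE libraries, but the replicates of a state also differed by more than 2 times from each other. A two-sided exact permutation test gave p = 0.333, which no difference can fall below with 2 libraries per state.

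With at least 13 reads per window, the numbers were 409 and 1140 in preadipocytes and 77 and 75 in adipocytes. This minimum brought the adipocyte replicates close together and widened the difference of the means to 10.2-fold. The replicates of 3T3-L1-PRE remained far apart, and the replicate with more reads listed more windows. The libraries also differed in depth. When every library was reduced to as many of its tallest windows as the shortest list held genome-wide, the region held 170 and 193 windows in preadipocytes and 83 and 70 in adipocytes, a 2.37-fold difference.

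The reads of the region fell less than its windows. They numbered 317470 and 548368 in preadipocytes, and 139223 and 140623 in adipocytes. As a share of the reads on chromosome 7, which are called cis reads here, they made up 4.14% (95% Wilson interval 4.13 to 4.15) and 4.00% (3.99 to 4.01) in preadipocytes. In 3T3-L1-AD they made up 2.84% (2.83 to 2.85) and 1.86% (1.85 to 1.87). These intervals cover counting error only, because copies of a molecule made by PCR cannot be recognised in these reads. The mean share was 4.07% ± 0.10 in preadipocytes and 2.35% ± 0.69 in adipocytes (SD, n = 2), a ratio of 0.578 with no overlap between the states (exact permutation p = 0.333).

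The lower share depended on what it was measured against. The 3T3-L1-AD libraries had more of their cis reads within 200 kb of the viewpoint, 68.4% and 70.2% against 53.4% and 51.7% in preadipocytes. Among cis reads beyond 200 kb, the region took 8.89% and 8.28% in preadipocytes and 9% and 6.24% in adipocytes. Among those beyond 1 Mb it took 15.3% and 14.9% in preadipocytes and 16.2% and 11.7% in adipocytes. On both of these scales the states overlapped (exact permutation p = 1), with 3T3-L1-AD replicate 1 highest and 3T3-L1-AD replicate 2 lowest. A bulk library cannot tell a contact made in fewer cells from one made less often in each cell.

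Reads were concentrated in few windows in adipocytes. The 10 tallest windows held 49.4% and 49.5% of the region's reads in adipocytes, and 14.9% and 5.19% in preadipocytes. The single highest window held 10.7% and 7.80% in adipocytes, and 2.30% and 0.831% in preadipocytes. Windows with at least 1000 reads numbered 36 and 34 in adipocytes and carried 93.6% and 92.6% of the reads, whereas in preadipocytes there were 107 and 161, with 71.2% and 43.7%. The adipocyte profile thus consisted of a few tall windows with little between them, and the preadipocyte profile of many windows of moderate height. The median of a listed window was 412 and 295 reads in preadipocytes and 608 reads in adipocyte replicate 1.

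In 3T3-L1-AD replicate 2 that median was 3 reads. Of its 193 listed windows, 118 had fewer than 13 reads, which is 61.1% of them, and together they held 349 reads or 0.248% of its reads in the region. Most of these low windows coincided with a preadipocyte library: 107 of them (90.7%) were also listed in preadipocyte replicate 2, where their median was 1154 reads. By comparison, 24 were listed in preadipocyte replicate 1, and 5 in the other adipocyte library. Of the 75 windows of 3T3-L1-AD replicate 2 with 13 reads or more, 33 (44.0%) were listed in preadipocyte replicate 2. Results that count its windows without a minimum of reads rest in part on these low windows, and the cause of the overlap was not tested.

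The same windows were seldom found again. Of the 1440 listed windows, 1087 were listed in a single library, 305 in 2 libraries, 46 in 3 libraries and 2 in all 4. The 3T3-L1-PRE replicates shared 204 windows, or 49.9% and 17.6% of their lists. The 3T3-L1-AD replicates shared 7 windows, 8.43% and 3.63% of their lists. With at least 13 reads, the shared windows were 200 in preadipocytes and 2 in adipocytes. With lists of equal length genome-wide, they were 26 in preadipocytes and 2 in adipocytes. The lists differ in length, so these overlaps do not rank the states.

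Shared windows also differed in height. Among the 204 windows listed in both 3T3-L1-PRE libraries, the larger count was a median of 3.38 times the smaller, and in 45 windows more than 10 times. Of the 7 windows listed in both 3T3-L1-AD libraries, 5 had only 2 or 3 reads in replicate 2, fewer than a preadipocyte library lists, so their ratios are not compared. Comparisons of single windows thus rest on unequal counts.

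Larger bins were shared more often. Of 90 bins of 100 kb, 65 and 76 held a listed window in preadipocytes, and 44 and 61 in adipocytes. The means were 70.5 ± 7.78 and 52.5 ± 12.0 bins (SD, n = 2; exact permutation p = 0.333), without overlap. With at least 13 reads, 43 and 37 bins remained occupied in adipocytes, against 65 and 76 in preadipocytes. In all, 40 bins were occupied in all 4 libraries, 28 of them with the common minimum, and 13 bins were empty in each library. The median bin held 3.5 and 13 listed windows in preadipocytes, and 0 and 1 in adipocytes, and the fullest bin 19 and 37 windows in preadipocytes and 8 and 11 in adipocytes.

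In 47 of the 77 bins with a listed window in any library (61.0%), both preadipocyte libraries had more listed windows than both adipocyte libraries, and the reverse was found in 0 bins. Over the 1288 such bins of chromosome 7 these shares were 47.6% and 0.155%. With at least 13 reads, the bins with more windows in both preadipocyte libraries were 56 (72.7%), against 56.8% over the chromosome. The differences between region and chromosome were not tested. Reads were scaled as CPM of the cis reads outside the tallest window, and 36 bins (46.8%) were higher in preadipocytes without overlap, against 44.7% of all bins. Only 2 bins (2.60%) were higher in adipocytes without overlap, against 1.86% of all bins.

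The 2 bins that were higher in adipocytes were looked up after their values were seen. The first, at 25718001 to 25818000, holds part of Ccdc97, with Cyp2s1, Axl, a receptor tyrosine kinase gene, and Hnrnpul1, an RNA-binding protein gene. It had 490 and 665 CPM in preadipocytes and 1068 and 1792 in adipocytes, a ratio of 2.48 between the means, although it had fewer listed windows in adipocytes (1 and 5) than in preadipocytes (5 and 25) on average. All 5045 reads of adipocyte replicate 1 lay in a single window. Of the 12994 reads of adipocyte replicate 2, 10269 lay in another window, in Axl, that no other library listed. The second, at 27618001 to 27718000, holds part of Akt2, the gene of a kinase of insulin signalling, with Ttc9b, Map3k10 and Zfp607b, and had 563 and 531 CPM in preadipocytes and 1106 and 622 in adipocytes. Neither passed the test described next (FDR = 0.740 and 0.903 by edgeR).

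The bins were tested in edgeR with all bins of chromosome 7 in the fit. Of the 90 bins, 72 had enough reads to be tested and 0 passed an FDR of 0.01, against 0.162% of the 1231 bins tested on the chromosome. At an unadjusted p of at most 0.05 there were 9 bins (12.5%), all lower in adipocytes, against 17.7% of all tested bins. The lowest FDR was 0.28. DESeq2 called 13 bins lower in adipocytes and 0 higher, where it called 32% of all bins lower and 0.975% higher. The estimates pointed down in 59 of the 72 bins (81.9%), against 80.9% of all bins, and the common dispersion was 4.37, which means that the spread between replicates was larger than their mean. On simulated bins the edgeR test recovered none of the known changes at a smaller spread, so bins that it did not call may still differ.

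The bins with the smallest p that were lower in adipocytes lay side by side or nearly so, between 27718001 and 28218000. The bin at 28118001 to 28218000 had 14016 and 3501 reads in preadipocytes and 0 and 0 in adipocytes (FDR = 0.28 by edgeR). It holds Fbl, which encodes the ribosomal RNA methyltransferase fibrillarin, Dyrk1b, a protein kinase gene, and part of Fcgbp. Counting each unlisted window of an adipocyte library at the most it can hold, 50 reads per bin, its CPM was at least 122-fold lower in adipocytes, with bounds of 29.7 when preadipocyte replicate 1 and 214 when replicate 2 was left out. The next bin towards the centromere, with Psmc4 of the proteasome, had 2905 and 3484 reads in preadipocytes and 0 and 0 in adipocytes (FDR = 0.28), at least 36.9-fold lower on the same count. Both adipocyte libraries were thus empty over these neighbouring bins, in which both preadipocyte libraries had over 1000 reads.

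The bin at 27718001 to 27818000, which holds the zinc finger gene Zfp60 and part of Zfp626, had 10689 and 7381 reads in preadipocytes and 0 and 6 in adipocytes (FDR = 0.28). Zfp626 runs on into the next bin, and the whole gene had 117 and 757 reads in preadipocytes and 0 and 1971 in adipocytes. In all, 4 of the 77 bins (5.19%) were listed in both 3T3-L1-PRE libraries and in neither 3T3-L1-AD library, a smaller share than the 19.3% of the 1288 bins of the chromosome. Beside the pair above these were the bin of Nlrp4a at 26418001, with 1507 and 1530 reads in preadipocytes, and the bin of Sirt2 and Nfkbib at 28718001, with 1420 and 3872 reads, both named after their values were seen. There was no bin with the reverse pattern.

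Among bins with a higher estimate in adipocytes, the smallest p belonged to the bin at 30518001 to 30618000, the most gene-dense of those named here, with 10 coding transcription starts. It holds Kmt2b, which encodes a histone methyltransferase, Zbtb32, a transcriptional repressor gene, and Arhgap33. It had 20109 and 20700 reads in preadipocytes and 22072 and 18031 in adipocytes, so that the totals of the bin were of similar size in all 4 libraries. The adipocyte totals rested on different tall windows. In adipocyte replicate 1, 14887 of the reads lay in a single window of Arhgap33 that no other library listed. In adipocyte replicate 2, 8472 lay in window 30600001 beside Zbtb32, which had 1631 in replicate 1. Scaled to cis reads, it had 2677 and 1536 CPM in preadipocytes and 4673 and 2487 in adipocytes, which overlapped (log2 fold change 0.77, SE 1.23, FDR = 0.740 by edgeR). The estimate was 2.06 by DESeq2 (FDR = 0.0231). The others were the bin of Axl (log2 fold change 1.31, SE 2.12) and the bin of Ltbp4 and Sptbn4 at 27318001 to 27418000, with 1358 and 15031 reads in preadipocytes and 7787 and 3563 in adipocytes. Scaled, the latter had 181 and 1115 CPM in preadipocytes and 1649 and 492 in adipocytes, which overlapped.

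The bins with the most listed windows in each state were largely shared between the states. The bin of Kmt2b had 19 and 34 listed windows in preadipocytes and 8 and 8 in adipocytes. The bin at 31018001 to 31118000, which holds 4 Fxyd genes, Lgi4 and Hpn, had 17 and 36 in preadipocytes and 1 and 11 in adipocytes. Its reads were 17114 and 21449 in preadipocytes but 45 and 10433 in adipocytes, so the adipocyte replicates disagreed there. The bin at 30818001 to 30918000, with the free fatty acid receptor genes Ffar1, Ffar2 and Ffar3 and with Cd22 and Mag, had 18 and 36 windows in preadipocytes and 2 and 7 in adipocytes. The bin of Gramd1a at 31118001 to 31218000 had 15 and 35 in preadipocytes and 2 and 9 in adipocytes. All of these bins lie within 1 Mb of each other.

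The 9 segments of 1 Mb showed the same unevenness. The segment from 30118001 to 31118000, with 60 coding transcription starts, had the most listed windows in every library: 129 and 317 in preadipocytes, and 26 and 60 in adipocytes. It carried 35.2% and 36.0% of the region's reads in preadipocytes, and 42.2% and 37.8% in adipocytes. The contacts of the region were thus gathered in this gene-dense stretch in both states. Its share of cis reads was 1.46% and 1.44% in preadipocytes and 1.20% and 0.704% in adipocytes, without overlap. Among cis reads beyond 1 Mb it took 5.38% and 5.34% in preadipocytes and 6.81% and 4.43% in adipocytes, which overlapped.

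The segment at the far end, ending at 26118000, holds Lipe, Tgfb1 and Axl and had 65 and 146 listed windows in preadipocytes and 13 and 18 in adipocytes. The next, from 26118001 to 27118000, holds most Cyp2 genes and had 6 and 33 windows in preadipocytes and 0 and 7 in adipocytes. In the segment from 27118001 to 28118000, with Akt2 and the first zinc finger genes, there were 52 and 196 windows in preadipocytes and 11 and 34 in adipocytes. The Cyp2 segment was thus a gap between fuller neighbours in all 4 libraries. Of its fragment ends 73.3% are unique, against 83.4% and 89.5% in those neighbours, and its GC content is also lower, 41.3% against 47.2% in each.

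The segment from 28118001 to 29118000, with Fbl, Supt5 and Sirt2, had 56 and 144 listed windows in preadipocytes and 7 and 14 in adipocytes. Its share of cis reads was 0.520% and 0.437% in preadipocytes and 0.185% and 0.0461% in adipocytes. From 29118001 to 30118000, where Sipa1l3 and further zinc finger genes lie, there were 53 and 162 windows in preadipocytes and 8 and 25 in adipocytes. These segments were lower in both adipocyte libraries by windows and by share of cis reads. Among cis reads beyond 1 Mb, the first took 1.92% and 1.62% in preadipocytes and 1.05% and 0.290% in adipocytes, without overlap. On that scale the second overlapped, with adipocyte replicate 1 highest and adipocyte replicate 2 lowest.

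The segments nearest to the viewpoint held unequal numbers of windows. The segment from 31118001 to 32118000 had 23 and 61 in preadipocytes and 7 and 15 in adipocytes. The segment from 32118001 to 33118000 had 0 and 1 in preadipocytes and 0 and 0 in adipocytes, and the last, from 33118001 to 34118000, had 25 and 98 in preadipocytes and 11 and 20 in adipocytes. The last segment ends 1 Mb from the viewpoint, yet it held fewer windows than the most distant one in all libraries but 3T3-L1-AD replicate 2. By share of cis reads, 5 of the 9 segments were higher in both 3T3-L1-PRE libraries and 0 in both 3T3-L1-AD libraries, against 49.6% and 7.09% of the 141 segments of the chromosome. Among cis reads beyond 1 Mb, 1 segment was higher in both 3T3-L1-PRE libraries, 0 in both 3T3-L1-AD libraries, and 8 overlapped. By listed windows, 7 segments were higher in both 3T3-L1-PRE libraries, against 83.7% of all.

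Distance from the viewpoint and number of windows were hardly related within the region. Over the 90 bins, the Spearman correlation between listed windows and distance was 0.25 and 0.24 in preadipocytes, and 0.02 and 0.12 in adipocytes. The correlation with the number of unique fragment ends was 0.69 and 0.77 in preadipocytes and 0.48 and 0.58 in adipocytes, and with GC content 0.78 and 0.78 in preadipocytes and 0.53 and 0.59 in adipocytes. With coding transcription starts it was 0.66 and 0.65 in preadipocytes and 0.40 and 0.57 in adipocytes. In the 77 bins with at least 100 unique ends, the correlation with GC content was 0.73 and 0.70 in preadipocytes and 0.43 and 0.48 in adipocytes. These are descriptions over bins of the same libraries that share depth and base composition, and neighbouring bins are not independent.

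The segment from 32118001 to 33118000 was poor in sequence that can be mapped. A fragment end was called unique where its first 50 bases occur once in mm10, and non-unique ends were discarded by the authors. Of 3472 fragment ends in this segment, 453 were unique, against 21866 of 30466 (71.8%) in the region and 3086 (94.7%) in the segment of Kmt2b. Over the region, 507 windows (11.3%) had no unique end, and 505 of these were listed in no library. Of the 3060 windows listed in no library, 16.5% had no unique end. Their mean was 3.99 unique ends per window. Windows listed in preadipocytes had means of 6.81 and 6.75, and those listed in adipocytes 7.01 and 7.01. How far unique ends decide which windows were listed was not tested. Per 100 unique ends, the segment of Kmt2b listed 4.18 and 10.3 windows in preadipocytes and 0.843 and 1.94 in adipocytes, and the Cyp2 segment 0.235 and 1.29 in preadipocytes and 0 and 0.275 in adipocytes.

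Listed windows lay in genes more often than the windows of the region as a whole. Of all 4500 windows, 29.6% overlapped an exon, against 47.2% and 44.0% of the listed windows in preadipocytes and 36.1% and 51.3% in adipocytes. A coding transcription start lay in 4.87% of all windows, in 7.33% and 8.03% of those listed in preadipocytes and in 6.02% and 11.9% of those listed in adipocytes. With at least 13 reads, exons were found in 36.4% and 50.7% of the windows in adipocytes and starts in 6.49% and 8.00%. All 4 libraries were above the region in both features, and the states overlapped. GC content was 45.0% over the region and 47.0% to 48.1% in the listed windows. Listed windows also had more unique ends, with means of 6.75 to 7.01 against 4.86 over the region, where 11.3% of windows had none. The difference in genes was not tested.

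A list named for lipid and insulin metabolism was examined, since adipocytes depend on both. It also holds genes with other functions, among them Tgfb1, Ltbp4, Cic, Zfp36, Hamp and Hamp2. Of 25 genes listed, 22 lie in the region. A listed window was found in all 4 libraries for 3 of them, in both 3T3-L1-PRE libraries but not in all 4 for 12, in other combinations for 5 and in no library for Hamp and Hamp2. Bckdha is among the 3 through only 5 reads in adipocyte replicate 2. Of all 238 coding genes that meet the region, 7.56% were listed in all 4 libraries, 42.9% in both 3T3-L1-PRE libraries but not in all 4, and 14.3% in no library. The windows of the list summed to 5125 and 2654 CPM in preadipocytes and 1422 and 573 in adipocytes. Both adipocyte libraries were lower. As a share of cis reads beyond 1 Mb, the list was also lower in both. Much of the preadipocyte sum came from few genes. Tgfb1 had 1345 and 490 CPM in preadipocytes and Dyrk1b 971 and 38.2, so the sum does not describe lipid and insulin genes alone.

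The gene with the most reads in this list was Tgfb1, which encodes the cytokine TGF-β1, with 10106 and 6603 reads in preadipocytes and 0 and 0 in adipocytes. Lipe, the gene of hormone-sensitive lipase that releases fatty acids from stored fat, had 4602 and 1034 reads in preadipocytes and 0 and 0 in adipocytes. Dyrk1b had 7292 and 515 reads in preadipocytes and 0 and 0 in adipocytes. These 3 genes were listed in both preadipocyte libraries and in neither adipocyte library. Few windows of the whole region were listed in adipocytes, 1.84% and 4.29%. How many of the 238 coding genes share this pattern was not counted, so it does not set these genes apart.

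Akt2 was listed in all 4 libraries, with 590 and 3045 reads in preadipocytes and 3313 and 2165 in adipocytes. Cic, a transcriptional repressor gene, had 2352 and 2962 reads in preadipocytes and 45 and 1968 in adipocytes. Bckdha, which encodes a subunit of the enzyme that degrades branched-chain keto acids, had 3064 and 2011 reads in preadipocytes and 167 and 5 in adipocytes. Scaled to cis reads, Akt2 had 78.6 and 226 CPM in preadipocytes and 701 and 299 in adipocytes, and was higher in both adipocyte libraries. It had 1 and 12 listed windows in preadipocytes but 2 and 1 in adipocytes. The adipocyte libraries shared no window of Akt2, since window 27606001 held all 2165 reads of replicate 2 and was not listed in replicate 1. How many coding genes were higher in both adipocyte libraries was not counted. Bckdha was lower in both adipocyte libraries, and Cic overlapped, with 313 and 220 CPM in preadipocytes and 9.53 and 272 in adipocytes.

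Lsr, a lipoprotein receptor gene, had 3382 and 4332 reads in preadipocytes and 0 and 3 in adipocytes. Usf2, a transcription factor gene, had 1939 and 1781 reads in preadipocytes and 3072 and 0 in adipocytes. Cox6b1, which encodes a subunit of cytochrome c oxidase, had 1715 and 3027 reads in preadipocytes and 0 and 2 in adipocytes. Apart from Usf2, these genes had almost no listed reads in the adipocyte libraries, where 1.84% and 4.29% of the region's windows were listed. Ltbp4, which encodes a binding protein of latent TGF-β, had 64 and 3589 reads in preadipocytes and 0 and 5 in adipocytes.

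A second list held genes of chromatin and transcription together with their neighbours Sipa1l3, Arhgap33 and Wtip, which have other functions. Of 17 genes, 13 lie in the region, where Pou2f2 and Wtip cross its ends. There were 5 genes with listed windows in all 4 libraries, a further 6 in both 3T3-L1-PRE libraries, and 2 in other combinations. Pou2f2 and Zbtb32 are among the 5 through only 2 and 5 reads in adipocyte replicate 2. Of all 238 coding genes, 7.56% were listed in all 4 libraries and a further 42.9% in both 3T3-L1-PRE libraries. Genes differ in length, and the classes were not tested. The list summed to 5997 and 3602 CPM in preadipocytes and 7825 and 1009 in adipocytes. The states overlapped, and the adipocyte replicates lay on either side of the preadipocyte ones.

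Sipa1l3, a long gene of 100 windows, had 16579 and 15258 reads in preadipocytes and 11098 and 3298 in adipocytes. Arhgap33 had 5252 and 2648 reads in preadipocytes and 14887 and 0 in adipocytes. Kmt2b had 3609 and 5844 reads in preadipocytes and 122 and 3855 in adipocytes. Scaled to cis reads, each of these 3 genes was highest in 1 adipocyte library and lowest in the other. Hnrnpul1 had 3223 and 4376 reads in preadipocytes and 5045 and 145 in adipocytes. Pou2f2, which encodes the octamer-binding factor OCT-2, had 3515 and 5917 reads in preadipocytes and 550 and 2 in adipocytes. Zbtb32 had 66 and 2813 reads in preadipocytes and 1493 and 5 in adipocytes.

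Fbl had 7292 and 1772 reads in preadipocytes and 0 and 0 in adipocytes. All of its reads in preadipocyte replicate 1, and 498 of those in replicate 2, lay in a window that it shares with Dyrk1b. Wtip, the gene nearest to the viewpoint in this list, had 694 and 5307 reads in preadipocytes and 0 and 5 in adipocytes. Supt5, the gene of a transcription elongation factor, had 2050 and 1522 reads in preadipocytes and 692 and 0 in adipocytes. For Fbl and Wtip both adipocyte libraries were below both preadipocyte libraries, while Supt5 overlapped when scaled, with 273 and 113 CPM in preadipocytes and 147 and 0 in adipocytes.

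Zinc finger genes were found in every library. All 25 Zfp genes of the region had a listed window in some library, 19 of them in both 3T3-L1-PRE libraries and 0 in both 3T3-L1-AD libraries. Of the 238 coding genes, 204 had a listed window in some library, 102 were listed in both 3T3-L1-PRE libraries but not in all 4, 4 in both 3T3-L1-AD libraries but not in all 4, and 18 in all 4. They differ in length, and the classes were not tested. The Zfp genes summed to 3325 and 3085 CPM in preadipocytes and 1814 and 1652 in adipocytes, a ratio of means of 0.541, where the whole region had 0.589, and were also lower as a share of cis reads beyond 1 Mb. Most of them encode KRAB-type repressors of transcription, unlike Zfp36, which promotes mRNA decay. Zfp607b had 2985 and 2020 reads in preadipocytes and 0 and 4255 in adipocytes. Zfp382 had 23 and 2817 reads in preadipocytes and 5363 and 0 in adipocytes. Zfp568 had 2114 and 3438 reads in preadipocytes and 0 and 2287 in adipocytes. Zfp60 had 5618 and 1564 reads in preadipocytes and 0 and 0 in adipocytes.

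All 4 Fxyd genes, whose products regulate the sodium pump, were listed in both 3T3-L1-PRE libraries. For this and the families below, the shares over the 238 coding genes were 42.9% in both 3T3-L1-PRE libraries but not in all 4. A further 7.56% were listed in all 4 and 14.3% in no library. The Fxyd genes summed to 398 and 723 CPM in preadipocytes and 0 and 653 in adipocytes. The highest was Fxyd5, with 1290 and 5224 reads in preadipocytes and 0 and 2033 in adipocytes. The adipocyte replicates were again unlike each other, and here all 132 fragment ends of the 4 genes' stretch are unique.

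The Cyp2 genes encode cytochrome P450 enzymes that oxidise steroids and foreign compounds, chiefly in liver and airway. Of 13 genes, 2 were listed in both 3T3-L1-PRE libraries, 7 in preadipocyte replicate 2 alone and 4 in no library. Cyp2b10 had 1163 and 1793 reads in preadipocytes, and Cyp2f2 had 2662 and 80, with 0 and 0 reads in adipocytes for each. Of the 123 windows of this family, 3 and 22 were listed in preadipocytes and 0 and 0 in adipocytes. Of all windows of the region, 9.09% and 25.7% were listed in preadipocytes and 1.84% and 4.29% in adipocytes. In the windows of the family 81.0% of fragment ends are unique, a share that differs between its genes.

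The Scgb genes encode small secreted secretoglobins. Of 29 genes, 21 were listed in no library and 4 in both 3T3-L1-PRE libraries. The highest was Scgb2b27, with 2735 and 672 reads in preadipocytes and 0 and 0 in adipocytes. Only 40.1% of the fragment ends over the stretch from the first to the last Scgb gene are unique, so a gene without reads there may be one that cannot be read. The Ceacam family of cell adhesion genes had 2 members in the region, of which Ceacam2 had 0 and 28 reads in preadipocytes and 48 and 11 in adipocytes. Ceacam1 had 441 and 0 reads in preadipocytes and 0 and 0 in adipocytes. Of 2 vomeronasal receptor genes of the Vmn family, both were listed in preadipocyte replicate 2 and neither in both libraries of a state. The Psg family had 0 genes here.

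The windows with the most reads differed between all libraries. In 3T3-L1-PRE replicate 1, the highest was window 28178001 to 28180000 at the start of Dyrk1b and the end of Fbl, with 7292 reads there, 498 in replicate 2 and 0 and 0 in adipocytes. It was followed by window 29376001 in an exon of Sipa1l3, with 5401 and 181 reads in preadipocytes, and window 25700001 in an intron of Tgfb1, with 5279 and 606 reads, and neither was listed in adipocytes. In 3T3-L1-PRE replicate 2, the highest was window 34110001 in an exon of Wtip, with 667 and 4558 reads in preadipocytes and 0 and 5 in adipocytes. Next came window 30236001 near Ovol3, with 0 and 3030 reads in preadipocytes and 0 and 4 in adipocytes, and window 30572001 in an exon of Kmt2b, with 454 and 2956 reads in preadipocytes and 0 and 0 in adipocytes. Of the windows with at least 1000 reads in preadipocyte replicate 1, 61 of 107 were listed in replicate 2, and of those in replicate 2, 39 of 161 were listed in replicate 1.

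In 3T3-L1-AD replicate 1, the highest was window 30532001 to 30534000 in an exon of Arhgap33, with 14887 reads there and 0 in each other library. Window 29408001 in an intron of Sipa1l3 had 8264 reads in it, and 409 reads in preadipocyte replicate 2. In 3T3-L1-AD replicate 2, window 31162001 near Gramd1a had 10967 reads, and window 25768001 in an intron of Axl had 10269, both with 0 reads in each other library. None of these 4 windows was listed in the other adipocyte library.

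Only 2 windows were listed in all 4 libraries. Window 30880001 to 30882000 lies at the start of Cd22, a gene of a B-cell surface receptor, and had 704 and 2764 reads in preadipocytes and 8474 and 2 in adipocytes. Window 30598001 to 30600000 lies at the start of Zbtb32 and had 66 and 657 reads in preadipocytes and 1320 and 3 in adipocytes. In each, 3T3-L1-AD replicate 1 was highest and 3T3-L1-AD replicate 2 lowest. With the common minimum of 13 reads no window was left in all 4 libraries.

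For the comparison of single windows, 209 windows of the region that were listed in both replicates of a state entered a test with 1998 such sites of the genome. The other 4291 windows were not tested. As 202 of the 209 entered through 3T3-L1-PRE alone and 5 through 3T3-L1-AD alone, their selection favoured that direction, and their counts support no statement about the region. By edgeR, 25 were lower in adipocytes at an FDR of 0.01 and 0 were higher, where 6.51% and 7.21% of all sites were called. All 25 had 0 reads in both 3T3-L1-AD libraries, and between 13 and 186 reads in preadipocyte replicate 1 and 11 and 188 in replicate 2. Leaving out preadipocyte replicates 1 or 2 gave 22 or 0 lower windows, and leaving out adipocyte replicates 1 or 2 gave 1 or 0. With a minimum of 13 reads edgeR called 0 sites of the genome. At an unadjusted p of at most 0.05 there were 178 sites, against 64% of all. At an FDR of 0.05, 160 were lower and 2 higher, where 58.2% of all sites were called. DESeq2 called 179 lower and 2 higher, where it called 56.6% of all sites lower, 12.4% higher and 69% in either direction.

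The windows below entered the test through the state in which they were high, so their selection favoured their direction and only reads and bounds are given. Window 33594001 to 33596000, near Scgb2b21, had 29 and 17 reads in preadipocytes and 0 and 0 in adipocytes, which is at least 4.88-fold lower when 3 reads are taken for each adipocyte library. Window 31104001 to 31106000, in an intron of the serine protease gene Hpn, had 20 and 12 reads in preadipocytes and 0 and 0 in adipocytes, at least 3.39-fold lower. The far taller window of Fbl and Dyrk1b was at least 961-fold lower on the same floor, and its preadipocyte replicates differed widely. These bounds fell to 2.40, 1.70 and 70.5 when preadipocyte replicate 1 was left out, and rose to 7.36, 5.08 and 1851 when replicate 2 was.

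In the other direction, window 30600001 to 30602000 beside Zbtb32 had 31 and 0 reads in preadipocytes and 1631 and 8472 in adipocytes. Window 27670001 to 27672000 in an intron of Map3k10 was listed in neither 3T3-L1-PRE library and had 830 and 253 reads in adipocytes. Against the 12 and 10 reads that an unlisted preadipocyte window may hold, it was at least 90-fold higher in adipocytes, and at least 29.8-fold when adipocyte replicate 1 and 150-fold when adipocyte replicate 2 was left out. These 2 were the only windows of the region with at least 13 reads in both adipocyte libraries.

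The other windows listed in both 3T3-L1-AD libraries had a few reads in replicate 2. Window 27294001 near Ltbp4 had 0 and 1392 reads in preadipocytes and 2542 and 3 in adipocytes. Window 29240001 in an intron of Yif1b had 0 and 1072 reads in preadipocytes and 808 and 2 in adipocytes, and window 30652001 in an exon of Haus5 had 0 and 1967 in preadipocytes and 142 and 3 in adipocytes. All 3 were also listed in preadipocyte replicate 2, with over 1000 reads.

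The r3Cseq values deposited for each library give no window of the region a q-value below 1. The lowest deposited p-values were 0.201 and 0.593 in preadipocytes and 0.223 and 0.392 in adipocytes. By that measure no window of the region rose above the authors' background in any library.

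A window with 1 DpnII site has a single site inside it from which its reads can come, although reads were counted per window. Of the windows listed in both 3T3-L1-PRE libraries, 2 hold a single site and no exon, and their sequence is shown with the 30 bases on each side of the site, from the plus strand of mm10 and with GATC in capitals. Both fragment ends of each are unique. Window 25886001 to 25888000, near Cyp2b10, had 4018 and 356 reads in preadipocytes and 0 and 0 in adipocytes, and its site lies in chr7:25887831-25887894.
window 25886001: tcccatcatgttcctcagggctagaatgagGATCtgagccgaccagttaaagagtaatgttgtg
Window 29242001 to 29244000, in an intron of Yif1b, had 1274 and 241 reads in preadipocytes and 0 and 0 in adipocytes, and its site lies in chr7:29242849-29242912.
window 29242001: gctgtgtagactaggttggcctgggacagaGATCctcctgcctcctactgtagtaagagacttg
In both, this is the only site inside a window that both preadipocyte libraries listed and the adipocyte libraries did not. The position of the reads within the window was not examined.

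The telomeric side at the same distance was compared to see whether the difference between states was one of this side. Listed windows there numbered 391 and 1128 in preadipocytes and 73 and 189 in adipocytes, close to those of the centromeric side in each library. The log2 ratio of centromeric to telomeric reads was 0.06 and −0.00 in preadipocytes, and 0.57 and −0.77 in adipocytes. The adipocyte replicates leaned to opposite sides, and the states overlapped (exact permutation p = 1).

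Libraries were last compared over the 90 bins by listed windows. The preadipocyte replicates had a Spearman correlation of 0.87, and the adipocyte replicates one of 0.57. Between states, adipocyte replicate 1 had 0.57 and 0.67 with preadipocyte replicates 1 and 2, and adipocyte replicate 2 had 0.74 and 0.81. With at least 13 reads the latter fell to 0.55 and 0.65. These values come from lists of unequal length and describe bins that share unique ends and base composition, and neighbouring bins are not independent.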

How the data were processed

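The 4 libraries, 2 of each state, were grouped by their cell type labels, preadipocytes as 3T3-L1-PRE and adipocytes as 3T3-L1-AD. Their titles call them mRNA-Seq, but their source is genomic DNA and their files are 4C-seq tables. The sample of inguinal white adipose tissue was not analysed here. The authors trimmed the primer, mapped reads to mm10 with bowtie2 in pipe4C, dropped fragment ends that are not unique, and counted reads in windows with r3Cseq. The deposited read count per 2000-bp window is not normalized and is the value used. The deposited signal (RPMs) is a normalized value from r3Cseq and was not used. The deposited p-value and q-value come from the r3Cseq background model of a library, and only their lowest values are given.

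Totals ranged from 6535263 to 16888137 reads per library. Windows that a library does not list counted as 0. Bins of 100 kb start at the first window of the region, and bins of chromosome 7 with a mean of at least 25 reads were tested with edgeR's quasi-likelihood test, with cis reads outside the tallest window as library size. Windows that both replicates of a state list, genome-wide, were tested likewise with TMM factors. P-values were adjusted by Benjamini-Hochberg over all bins or all sites, at an FDR of 0.01. Exact permutation tests were two-sided over the 4 libraries. Folds where both 3T3-L1-AD libraries list nothing are bounds, against 3 reads per library in a window and 50 in a bin. The bin test was tested on simulated data with known changes: it recovered most when replicates were close and none at a larger spread, which was still below that of the real bins. The site test was not tested in this way. DpnII fragment ends, their uniqueness at 50 bases and GC content came from the GRCm38 sequence of RefSeq, and genes from GENCODE vM21.

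Named windows were the 3 with the most reads in each library, those listed in all 4 libraries, and the 2 with the smallest p in each direction. Of the 3 tallest in 3T3-L1-AD replicate 1, the window of Cd22 is given among those in all 4 libraries. Of the 3 tallest in 3T3-L1-AD replicate 2, 2 are given. Named bins were the 3 with the smallest p in each direction and the 3 with the most listed windows in each state. Genes came from 9 lists, at most 10 a list by reads. Of the Zfp, Cyp2, Fxyd and Scgb families only the first 4, 2, 1 and 1 are given, and for the Vmn genes no reads are given. The other windows shared by both 3T3-L1-AD libraries were named once their values had been seen. Members and lists were chosen with earlier results of these data known.

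Alternatives were other minimums and numbers of windows, thinned reads, other denominators, other normalizations and filters, other bins, DESeq2, a replicate block, and each library left out. For the bins, cis reads beyond 1 Mb as library size, and windows of at least 13 reads in place of reads, were chosen after seeing the data. Tests ran in edgeR 4.0.16 and DESeq2 1.42.0 under R 4.3.3, and the rest in pandas 2.3.3, scipy 1.17.1 and numpy 2.4.6 under Python 3.11.15.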

Additional observations from a re-analysis of the deposited data

How the results depend on the processing

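The means of listed windows, share of cis reads and occupied bins stayed lower in 3T3-L1-AD under all alternatives run for them, but the states overlapped for the share of cis reads beyond 200 kb or 1 Mb and for bins of 500 kb. Windows in both 3T3-L1-PRE replicates fell to 124 with at least 100 reads and to 26 with lists of equal length. Those in both 3T3-L1-AD replicates fell to 2 with at least 13 or 100 reads, with lists of equal length, and with thinned reads.

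The difference between states in the log2 ratio of the sides was −0.13, turned to 0.0563 with windows in place of reads, and ranged from −0.80 to 0.54 with single libraries left out. DESeq2 called 13 bins lower, and edgeR 0 in the region under its other alternatives, with the replicate block too.

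Windows called lower in 3T3-L1-AD were 25. They became 53 with cis reads as library size, 160 at a threshold of 0.05 and 179 with DESeq2, and 0 with RLE factors, with windows in at least 2 libraries, with at least 13 reads and with the replicate block. Windows called higher became 2 at a threshold of 0.05 and with DESeq2. Leaving out single libraries gave 0 to 22 lower and 0 to 2 higher. Without 3T3-L1-PRE replicate 2 or without 3T3-L1-AD replicate 2, 0 were lower, and 1 without 3T3-L1-AD replicate 1. Labels name no pairing. Same-numbered libraries deviated with a correlation of −0.05 over 1231 bins, but 107 of the 118 low windows of 3T3-L1-AD replicate 2 were listed in 3T3-L1-PRE replicate 2. The causes of these changes were not tested.

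Of the log2 fold changes of named bins, that of Kmt2b rose from 0.77 to 2.06 with RLE factors and DESeq2 (FDR = 0.0231), 1.43 with TMM factors and 1.41 with reads beyond 1 Mb. That of Axl rose from 1.31 to 3.01 with DESeq2 (FDR = 0.0250) and turned to −0.24 with windows in place of reads. That of Ltbp4 turned to −1.05 with windows of at least 13 reads and ranged from −0.40 to 2.57 with single libraries left out. That of Ffar2 turned to 0.0113 with TMM factors, 0.65 with RLE factors, 0.65 with DESeq2 and 0.14 with reads beyond 1 Mb, and ranged from −1.72 to 0.18. That of Fxyd5 turned to 0.57 with RLE factors and 0.57 with DESeq2. That of Gramd1a turned to −0.14 with windows and −0.33 with windows of at least 13 reads, and ranged from −0.41 to 0.73. With the replicate block, windows 30598001, 30652001 and 30880001 turned to −0.45, 0.35 and −2.05. With single libraries left out, window 27294001 ranged from −6.34 to 13.64, window 29240001 from −6.53 to 11.99, window 30598001 from −5.44 to 3.84, window 30652001 from −6.84 to 9.51 and window 30880001 from −8.32 to 3.50. With 1 library in a state, it is assumed to vary like the other state. Windows 27294001, 29240001 and 30652001 entered the test through 3T3-L1-AD alone, by 2 or 3 reads in replicate 2. Their estimates are given for their instability and support no direction.

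Unlisted windows hide up to 12 reads in preadipocytes and 1 in adipocytes, so low windows are compared on unequal limits.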

Other observations

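The windows listed in 3 libraries, looked up after their values were seen, add named genes to the region. Of these 46 windows, 33 were missing from 3T3-L1-AD replicate 1, 9 from 3T3-L1-AD replicate 2, 3 from 3T3-L1-PRE replicate 1 and 1 from 3T3-L1-PRE replicate 2. In 24 of them 3T3-L1-AD replicate 2 had fewer than 13 reads. The windows listed in 3 or 4 libraries overlapped an exon in 62.5% and a coding transcription start in 16.7%, against 29.6% and 4.87% of the windows of the region. Among windows listed in both 3T3-L1-PRE libraries, these shares were 51.5% and 10.3%. The differences were not tested.

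Window 30558001 at the start of Lin37, which encodes a subunit of a cell cycle repressor complex, had 1521 and 1679 reads in preadipocytes and 0 and 384 in adipocytes. Window 30576001 in an exon of Kmt2b had 752 and 457 reads in preadipocytes and 0 and 3855 in adipocytes. Window 31066001 in an exon of Lgi4, the gene of a secreted protein of peripheral nerve, had 3734 and 975 reads in preadipocytes and 0 and 3371 in adipocytes. The listed adipocyte library had a count below the preadipocyte pair for Lin37, above it for Kmt2b and within its range for Lgi4, and the other adipocyte library listed none.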
